A study of Rattus norvegicus with 6 samples.

Results

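The 5 genes described here mark the path from marrow stromal cell to bone-forming osteoblast: the transcription factors Runx2 (ENSRNOG00000020193) and Sp7 (ENSRNOG00000014082), the mineral enzyme Alpl (ENSRNOG00000013954), and the bone matrix proteins Bglap (ENSRNOG00000019607) and Spp1 (ENSRNOG00000043451). They were taken as a fixed list of 5 gene IDs out of the 32883 in the deposited count table, and all 5 have a row there. The pairing of each ID with its symbol came with that list. Neither the count table nor the RefSeq gene table used here links Ensembl IDs to symbols, so the 5 pairs were not checked against a table. Every gene name below rests on that pairing.

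The cells were primary rat bone marrow stromal cells (BMSCs), adherent marrow cells that can form bone, fat and cartilage cells, grown in alpha-MEM medium with 10% fetal bovine serum. The Hypoxia group (3 libraries) was kept at 1% O2 for 7 days in a tri-gas incubator. The Control group (3 libraries) is labelled normal, with no oxygen percentage or culture time of its own. No strain, age, passage or osteogenic medium is named for either group, and the labels do not say whether the 3 libraries of a group stem from different animals or dishes, so the p-values cover only the spread between these libraries, which may be technical. The labels give BMSCs as cell type, but the extraction protocol names muscle. Because other genes could not be named, markers of stromal, blood, muscle and other cells were not analysed here, and neither were the other genes of the BMP, WNT and mineralisation pathways.

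In bone formation, Runx2 acts first: it commits stromal precursors to the osteoblast lineage, and Sp7 (osterix), a zinc finger factor of the SP family, is needed downstream of it. Alpl, tissue-nonspecific alkaline phosphatase, sits on the surface of early osteoblasts and matrix vesicles, where it removes the mineralisation inhibitor pyrophosphate and releases phosphate. Spp1 (osteopontin) is a phosphorylated, integrin-binding matrix protein that is made by osteoblasts and also by many other cells, stromal cells and macrophages among them. Bglap (osteocalcin) is a vitamin K-dependent protein of late, mineralising osteoblasts.

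The promoter windows of 3 members are printed because these are the members with enough reads to be tested, and because the series title names SP1, a factor that binds GC boxes. They come from RefSeq (build GRCr8, whereas the submitters' notes name rn6 for the counts), were matched by symbol, and run from 250 bases before to 50 bases after an annotated start, on the gene's strand. Capitals mark matches, on either strand, to the GC box GGGCGG, the RUNX core ACCACA, the TATA box TATAAA and the hypoxia response cores ACGTG and GCGTG. The RUNX core was searched in this form only, so its other form, ACCGCA, is neither marked nor counted.
Runx2, upstream start, chr9:23664808-23665107, plus strand: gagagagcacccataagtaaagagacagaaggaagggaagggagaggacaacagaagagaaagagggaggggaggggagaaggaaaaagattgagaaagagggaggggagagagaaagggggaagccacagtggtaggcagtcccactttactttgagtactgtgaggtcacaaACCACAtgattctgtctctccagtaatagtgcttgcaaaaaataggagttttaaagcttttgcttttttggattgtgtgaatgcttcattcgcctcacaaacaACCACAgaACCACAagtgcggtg
Alpl, chr5:155289736-155290035, minus strand: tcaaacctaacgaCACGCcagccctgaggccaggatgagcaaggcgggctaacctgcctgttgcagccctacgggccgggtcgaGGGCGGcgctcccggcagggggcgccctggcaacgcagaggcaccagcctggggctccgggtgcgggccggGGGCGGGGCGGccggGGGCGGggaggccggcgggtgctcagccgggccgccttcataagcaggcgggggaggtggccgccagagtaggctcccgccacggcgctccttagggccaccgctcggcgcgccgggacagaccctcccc
Spp1, chr14:5619755-5620054, minus strand: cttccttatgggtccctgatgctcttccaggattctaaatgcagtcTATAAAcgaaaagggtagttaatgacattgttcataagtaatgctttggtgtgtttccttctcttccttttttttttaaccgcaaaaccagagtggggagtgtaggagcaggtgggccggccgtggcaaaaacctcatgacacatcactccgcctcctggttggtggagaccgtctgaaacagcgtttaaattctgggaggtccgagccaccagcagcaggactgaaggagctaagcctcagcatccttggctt

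The 3 windows differed in these letters. That of Alpl held 4 GC boxes, starting at positions -166, -95, -90 and -80 from the start site, of which the middle pair overlap by their end bases, and 1 hypoxia response core (GCGTG on the opposite strand, from -237). Its GC content was 76.3%, against a median of 51.7% and an upper decile of 68.7% over all 33469 windows of the table. The upstream Runx2 window held 3 RUNX cores, from -76, 28 and 36, and 0 GC boxes. A second Runx2 start has a window with 1 GC box, on the opposite strand from -78, and 0 RUNX cores. The Spp1 window held 1 TATA box motif, from -204, and no exact match to the other motifs searched. The form ACCGCA, which was not searched, does occur in the Spp1 window. It also occurs on the opposite strand of the upstream Runx2 window. In the Bglap window a RUNX core lay at -118 and a TATA box at -15. For Sp7 no window was used. Among all windows, 33.1% held at least 1 GC box, 17.3% a RUNX core, 14.2% a TATA box motif, 19.3% ACGTG and 29.7% GCGTG. These shares count windows with any match. How often a window holds several, or how this depends on GC content, was not computed. A match describes letters and is not evidence of a bound site.

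**Figure D1:**
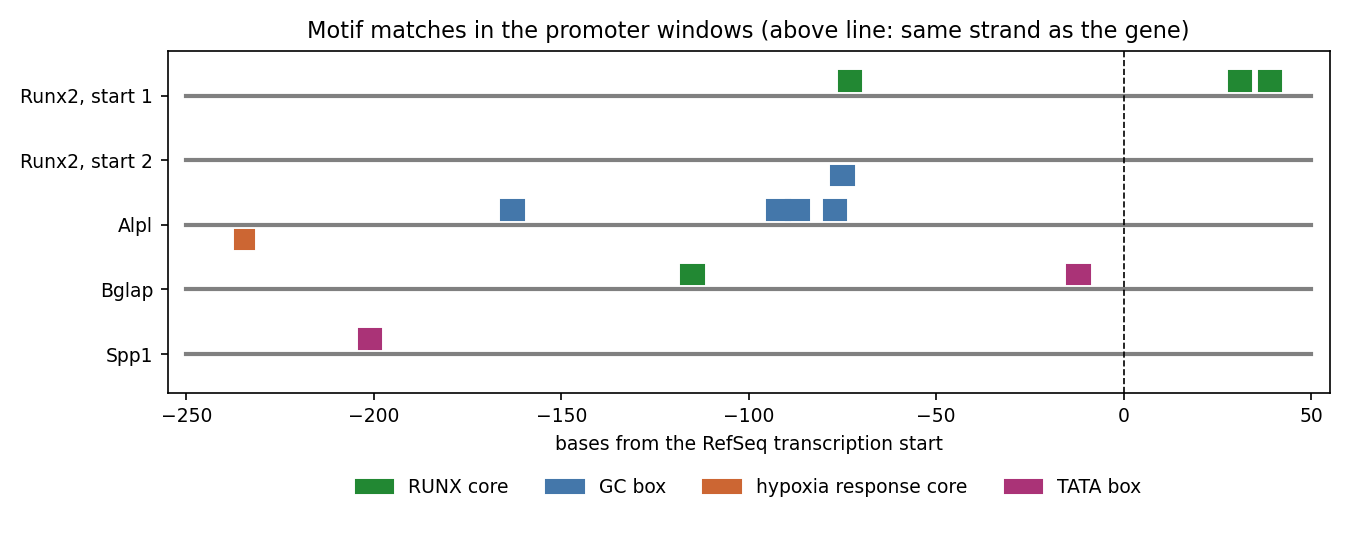
Motif matches in the RefSeq promoter windows of 4 members, plotted by distance in bases from the annotated start (dashed line); boxes above a line lie on the gene's strand and boxes below on the opposite strand. Alpl has 4 GC boxes, the upstream Runx2 start has 3 RUNX cores of the form ACCACA, and Spp1 has a single TATA box motif far from its start.

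After 7 days at 1% O2, the transcripts of Spp1 and Alpl were lower, that of Runx2 was not called different, and those of Sp7 and Bglap were too rare in either group for a comparison. Spp1 fell 3.62-fold and Alpl 1.60-fold (edgeR quasi-likelihood test, Benjamini-Hochberg over all 12702 tested genes). Levels are given in CPM, reads relative to library size, scaled between libraries with TMM factors, and a gene is called at an adjusted p under 0.05. In all, 2 of the 5 members were called, both lower, out of 3 that passed the filter on low counts. Over all tested genes the same rule called 45.0%, of which 23.1% of genes were higher and 21.9% lower, so a call in itself is common in this comparison. The median log2 fold change was -0.68 over the 3 tested members and 0.0025 over all tested genes. With 3 members the median is simply the value of Alpl, and that of Runx2 was positive (0.15). In bulk RNA, fewer cells that make a transcript and less transcript per cell cannot be told apart.

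Each library held between 13273781 and 18533675 reads assigned to genes, with the 3 deepest libraries all at 1% O2. Control replicate 2 differed more from its group than the others did, with a mean chi-square per gene of 6.48 and 6.57 against the other controls, where those 2 gave 1.51 between them. For the 3 tested members this library lay 0.01 to 0.03 log2 units above the mean of the other controls, and the calls below were the same without it.

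Runx2, the factor that starts the lineage, stood at 20.96, 22.1 and 22.8 CPM in the controls and at 25.4, 23.9 and 23.7 CPM at 1% O2. All 3 libraries at 1% O2 lay above all 3 controls on this scale, by a gap smaller than the spread within either group. Over all tested genes, the groups failed to overlap in 55.5%. The means were 21.95 ± 0.94 and 24.3 ± 0.96 CPM (SD, n = 3 each), and the log2 fold change was 0.15 ± 0.07 (SE; adjusted p by edgeR = 0.11). Its 95% interval ran from -0.01 to 0.31, so a level between 0.996 and 1.24 times control fits these libraries under this scaling. Of all tested genes, 64.6% had a larger change in size.

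The small difference in Runx2 also depended on how libraries were scaled. With library totals alone, the controls stood at 21.5, 22.8 and 23.5 CPM and the 1% O2 libraries at 24.7, 23.3 and 22.9 CPM, which overlap. On that scale the log2 fold change was 0.06 (adjusted p = 0.51 by edgeR, the highest over 16 alternatives, whose lowest was 0.10). TMM factors lay between 1.03 and 1.04 in the controls and at 0.97 in the 1% O2 libraries. Library totals shift the median log2 fold change of all genes to -0.09. Runx2 is therefore given here as not distinguished from control, without a direction. The interval above bounds its size under TMM factors only. With library totals the SE was 0.07, larger than the change of 0.06 itself, and no interval is given on that scale.

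Sp7, which acts after Runx2, had 1, 0 and 2 reads in the controls and 3, 2 and 1 reads at 1% O2. All 6 libraries were at or under 3 reads, the floor used here for a count of 0, which corresponds to 0.167 to 0.22 CPM depending on depth. Pooled over the group, 3 control reads gave 0.073 CPM (exact 95% Poisson interval 0.015 to 0.21) and 6 reads at 1% O2 gave 0.13 CPM (0.047 to 0.28). These intervals cover counting error only, and they overlap. No difference was detectable at this depth, and no fold change is given. In an edgeR fit without the low-count filter its adjusted p was 0.65.

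Alpl, the phosphatase of early osteoblasts, was read at 99.5, 107 and 110 CPM in the controls. At 1% O2 its level was 65.2, 66.3 and 65.9 CPM. The lowest control lay well above the highest library at 1% O2, and the 1% O2 libraries were closer together, with a coefficient of variation of 0.83% against 5.06% in the controls. The means were 105 ± 5 and 65.8 ± 0.5 CPM (SD, n = 3 each). The log2 fold change was -0.68 ± 0.05 (SE; adjusted p by edgeR = 1.64e-07), and its 95% interval of -0.79 to -0.57 spans falls of 1.48-fold to 1.73-fold. The level at 1% O2 was thus 62.4% of control. Among all tested genes, 4.90% had a more negative fold change.

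Spp1, the osteopontin transcript, showed the largest change among the tested members. The controls stood at 759, 778 and 764 CPM, and the 1% O2 libraries at 224, 218 and 194 CPM. Every library at 1% O2 was below every control, by far more than the spread within a group. Its mean went from 767 ± 10 to 212 ± 16 CPM (SD, n = 3 each). On the log2 scale it fell by 1.85 ± 0.05 (SE; adjusted p by edgeR = 4.49e-12). The 95% interval of -1.97 to -1.74 corresponds to falls of 3.35-fold to 3.91-fold, and the level left was 27.7% of control. Only 35 of the 12702 tested genes had a more negative fold change, which is 0.28%, and 0.94% had a larger one in either direction. As a share of all reads assigned to genes, Spp1 took 0.0790% ± 0.0013 in controls and 0.0205% ± 0.0016 at 1% O2 (SD, n = 3 each).

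Bglap, the protein of late osteoblasts, had 2, 0 and 3 reads in the controls and 3, 1 and 4 reads at 1% O2. A single library, Hypoxia replicate 3, exceeded the floor of 3 reads. The pooled level was 0.12 CPM in controls (exact 95% Poisson interval 0.039 to 0.28) and 0.17 CPM at 1% O2 (0.074 to 0.34). A difference was not detectable, and the unfiltered edgeR fit gave an adjusted p of 0.75. The sign of the small difference in mean CPM, 0.05, turned when Control replicate 2 (-0.011) or Hypoxia replicate 3 (-0.0036) was left out. Sp7 and Bglap were near 0 reads in the controls as well as at 1% O2.

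**Figure D2:**
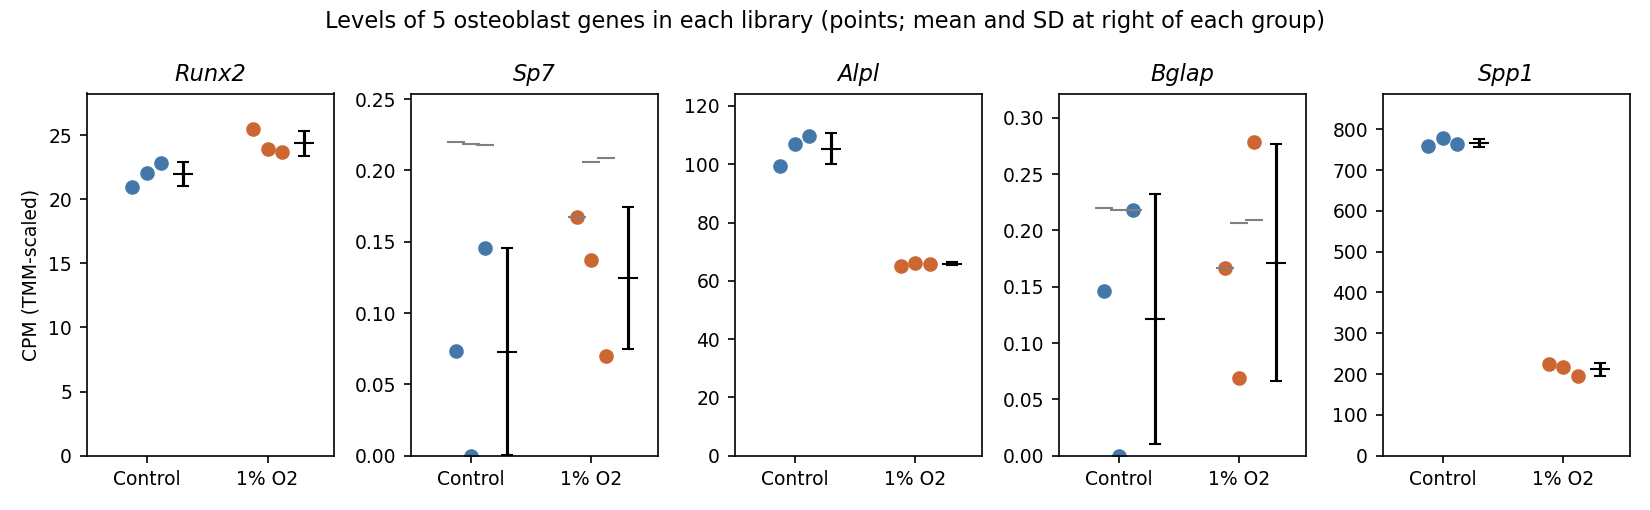
CPM (TMM-scaled, each axis from 0) of the 5 members in each control library (blue) and each library at 1% O2 (orange), with the mean and SD beside each group; grey dashes for Sp7 and Bglap are the level of 3 reads in each library. Spp1 drops from 767 to 212 CPM and Alpl from 105 to 65.8 CPM, Runx2 stays near 22 to 24 CPM, and Sp7 and Bglap lie around the level of 3 reads or below.

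**Figure D3:**
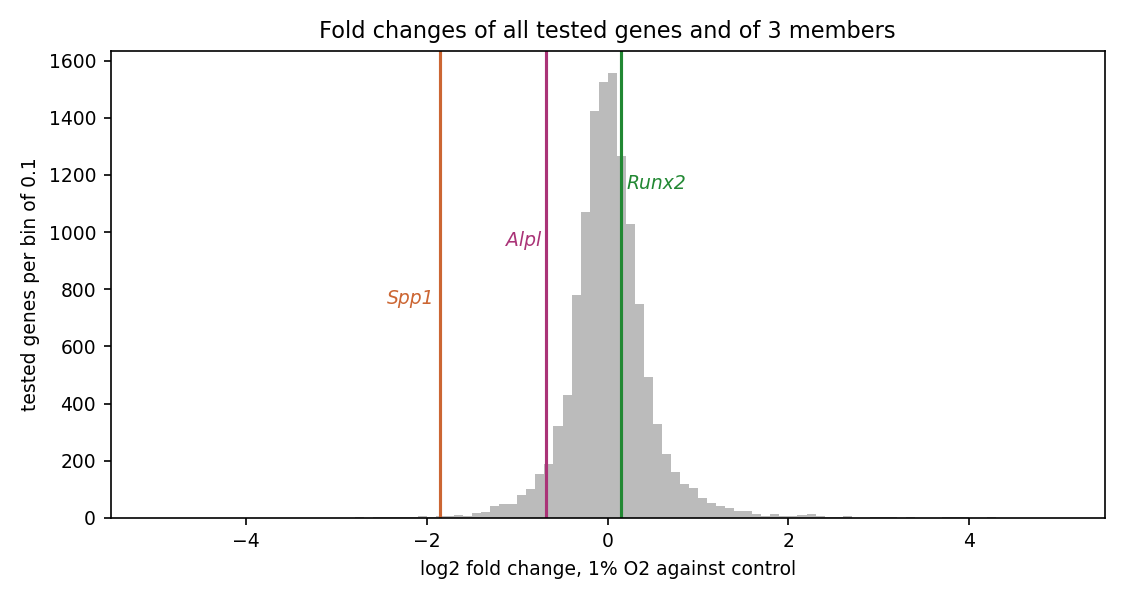
Number of tested genes per 0.1 of log2 fold change at 1% O2 against control (grey bars), with the 3 tested members as lines. Runx2 (0.15) lies in the bulk of genes, Alpl (-0.68) at the lower shoulder and Spp1 (-1.85) in the far lower tail.

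In these libraries the 3 tested members did not move by equal amounts. This was examined with the ratio of reads of 2 members within the same library, a measure that no library scaling can change. The level of such a ratio depends on gene length, so only its change between groups was read. The log2 ratio of Runx2 to Spp1 rose by 2.01, a 4.02-fold shift, from -5.18, -5.14 and -5.06 in the controls to -3.14, -3.18 and -3.04 at 1% O2. Runx2 relative to Alpl went from -2.24, -2.27 and -2.26 to -1.36, -1.47 and -1.48, a difference of 0.83 or 1.77-fold. The ratio of Alpl to Spp1 went from -2.93, -2.86 and -2.80 to -1.78, -1.71 and -1.56, a difference of 1.18 or 2.27-fold. These changes come from the same reads as the fold changes above and are not separate support for them. Each of the 3 follows from the other 2.

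In each of these 3 pairs the groups did not overlap, and the 3 differences were far larger than the SDs within groups, of 0.01 to 0.11. By an exact permutation test, two-sided, p was 0.1 for each, the smallest that 3 against 3 allows, and 0.2 after Benjamini-Hochberg adjustment over the 10 pairs of members. The test could therefore not reach the threshold in this design. How often pairs of other genes fail to overlap was not computed, so the separation has no background share beside it. In all 3 libraries at 1% O2, Spp1 had fewer reads relative to Runx2 and to Alpl than in any control, and Alpl had fewer relative to Runx2. The other 7 pairs include Sp7 or Bglap and rest on 0 to 4 reads. Of these, 2 had groups that did not overlap, Sp7 to Spp1 and Bglap to Spp1, where Spp1 itself had 10352 to 10675 reads in the controls and 2791 to 4022 at 1% O2.

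**Figure D4:**
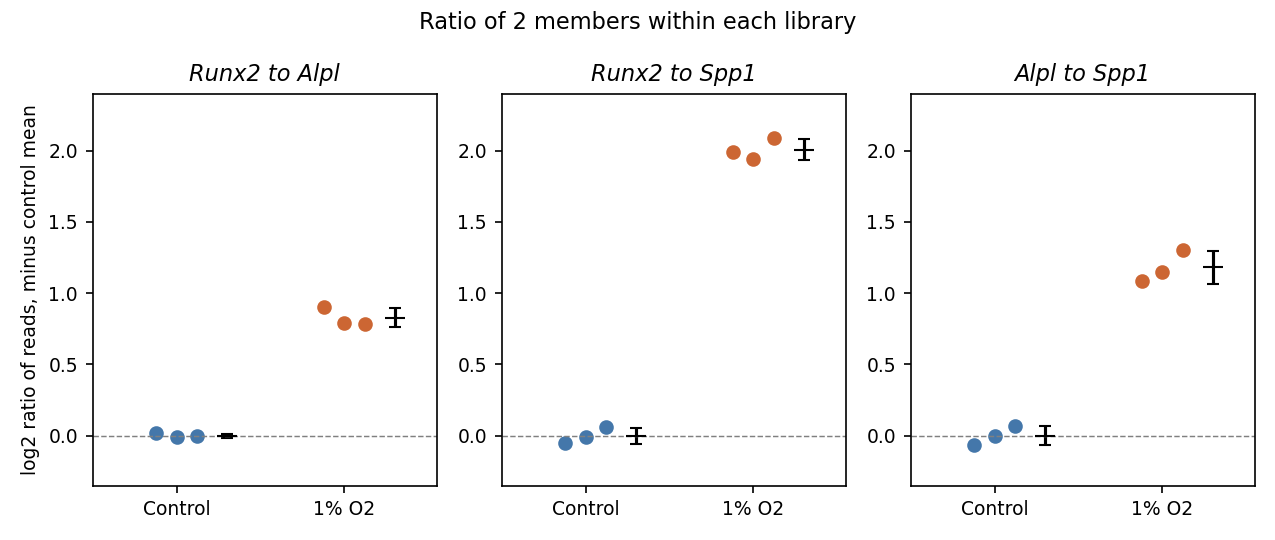
log2 ratio of reads of 2 members within each library, shown relative to the control mean, for the 3 pairs of tested members (points, with mean and SD beside each group). At 1% O2 the ratios lie 0.83, 2.01 and 1.18 above the controls for Runx2 to Alpl, Runx2 to Spp1 and Alpl to Spp1.

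The fold changes of the 3 tested members were recomputed with other scalings, filters, tools and with each library left out. Alpl lay between -0.77 and -0.65 and Spp1 between -1.94 and -1.79, and both were called under all 16 alternatives. Runx2 lay between 0.06 and 0.18 and was called under none of them. Of the 16, a robust fit and a stricter threshold of 0.01 gave the same fold changes as the reported fit. Those settings bear only on the calls.

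**Figure D5:**
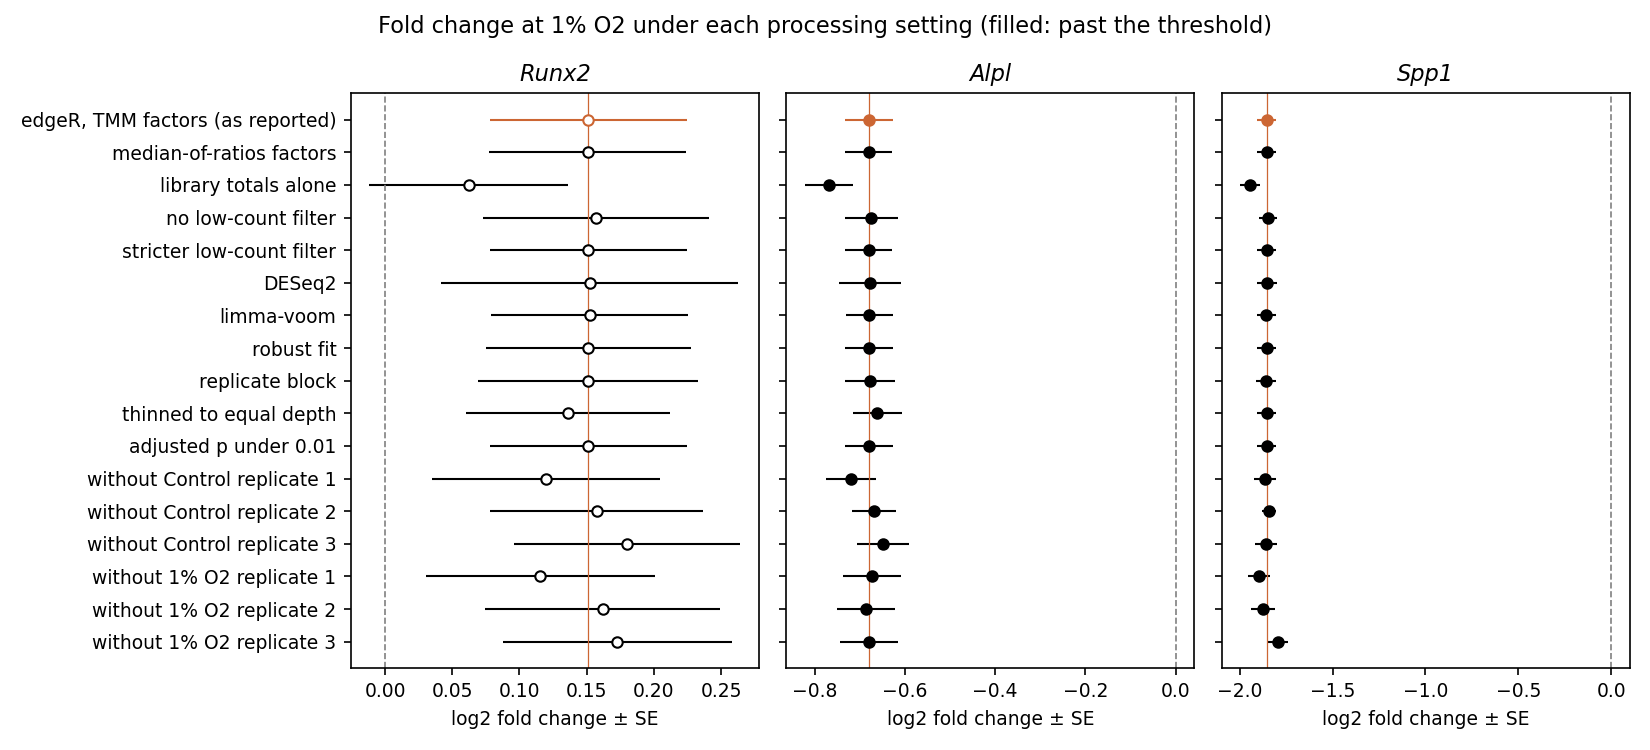
log2 fold change at 1% O2 with its SE for Runx2, Alpl and Spp1 under the reported fit (orange, top row) and 16 alternatives (black); filled points are past the threshold, open points are not, the dashed line is 0, and the horizontal scales differ between panels. Alpl and Spp1 are filled throughout, and Runx2 is open throughout and closest to 0 with library totals alone.

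Among 11352 other tested genes averaging 1 or more in log2 CPM, those most like each member over the 6 libraries were sought by Pearson correlation of log2 CPM, as a description. The 6 points share the split into 2 groups, which sets most of such a value for any gene that differs between them. For Spp1, 9.60% of the genes had a correlation above 0.95, for Alpl 8.63%, and for Runx2 0.48%. The 2 genes most like Spp1, both with a correlation of 0.999, were ENSRNOG00000042189, at 248 ± 2 CPM in controls and 164 ± 4 CPM at 1% O2, and ENSRNOG00000008565, at 11.5 ± 0.1 and 6.61 ± 0.24 CPM (SD, n = 3 each). Those most like Runx2, both at 0.991, were ENSRNOG00000046191, at 4.64 ± 0.46 and 5.73 ± 0.34 CPM, and ENSRNOG00000009300, at 1.94 ± 0.23 and 2.82 ± 0.45 CPM. By edgeR, adjusted p was 0.084 for ENSRNOG00000046191, which was not called, and 0.046 for ENSRNOG00000009300. No table at hand names these genes, so IDs were limited to 2 with a higher and 2 with a lower mean at 1% O2, ranked by correlation. The 2 genes most like Alpl, both lower with a correlation of 0.998, are not listed for that reason.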

How the data were processed

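The authors deposited unnormalized read counts, with 1 row for each Ensembl gene ID. HISAT2, featureCounts, DESeq2 and the build rn6 are named per the submitters' processing notes, and libraries came from a stranded mRNA kit per the labels' protocols. The strand setting, tool versions and annotation release are not given in these sources, so overlapping or antisense genes may share reads. The table's 6 columns matched the 6 samples by library name, with 0 columns left over.

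The following was computed here. Genes passing edgeR's filterByExpr (minimum count 10, minimum total 15) were fitted by the two-sided quasi-likelihood test with TMM factors and 4 residual degrees of freedom (edgeR 4.0.16, R 4.3.3). Adjusted p-values follow Benjamini-Hochberg across every tested gene. The SE is the log2 fold change divided by the square root of F. Ratios of members used counts plus 0.5 and exact permutation over libraries. Log2 CPM for correlations had a prior count of 2. No pair of libraries agreed within sampling noise, so none was merged as a repeat of another, whether or not they stem from different animals or dishes.

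The members and lists were chosen with earlier results of these data known. The genes named are the 5 members and, by a written rule, those most correlated with them, with at most 2 unnamed IDs in each direction. Lists of other bone pathway genes and cell type markers were written but not run, because the RefSeq table (GRCr8, 47357 genes) gives an Ensembl ID for 0 of them. Alternatives included DESeq2 1.42.0 and limma-voom (limma 3.58.1).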

Additional observations from a re-analysis of the deposited data

How the results depend on the processing

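The 3 tested members kept their direction and their side of the threshold under all 16 alternatives, as did the count of 2 members called. Over all genes, the counts of 5718 changed, 2932 higher and 2786 lower moved by less than 1.5 times, to 3981 to 6071, 2080 to 3123 and 1901 to 3987. With library totals in place of TMM factors, 3987 of the 6071 changed genes were lower. When 1 library was left out, the log2 fold change was 0.12 to 0.18 for Runx2, -0.72 to -0.65 for Alpl and -1.90 to -1.79 for Spp1. The replicate block, which takes equal replicate numbers as pairs, gave 0.15, -0.68 and -1.86 and changed no call of a member. Same-numbered libraries of the 2 groups deviated together with correlations of -0.044, -0.051 and 0.0052, and the labels state no pairing.

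When 1 library was left out, the difference in mean CPM of Bglap and 3 ratios with Sp7 or Bglap changed sign. The Bglap difference ranged from -0.011 to 0.10, and that of Sp7 kept its sign at 0.015 to 0.088. The change in log2 ratio ranged from -1.08 to 0.050 for Runx2 to Sp7, from -0.999 to 0.38 for Runx2 to Bglap and from -0.39 to 0.78 for Sp7 to Bglap. The other 7 ratios kept their direction. Depth limits Sp7 and Bglap, at 0 to 4 reads a library. Settings for the other bone genes were not run, since their IDs could not be named.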
